A study of Mus musculus with 2 samples.

Results

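The genes of the LIF and Stat3 pathway were followed in mouse ES cells, with 8 members taken by symbol: the ligand *Lif*, the receptor chains *Lifr* and *Il6st*, the kinase *Jak1*, the transcription factor *Stat3*, the inhibitor *Socs3* and the kinase genes *Pim1* and *Pim3*. All 8 were found among the 54146 gene identifiers of the files. The study compared wild-type ES cells with *Lin28a* knockout ES cells, 1 inDrop library each, a method that barcodes the transcripts of each cell inside a droplet and tags each transcript with a unique molecular identifier (UMI). Both were grown for 2 days on gelatin with feeder fibroblasts from mouse embryos (MEF). The medium held LIF and a pair of kinase inhibitors (LIF/2i), and no other treatment of the cultures is named. The knockout came from CRISPR/Cas9 cutting in the second exon of *Lin28a*. In the paper's methods a plasmid with guide and Cas9 was nucleofected, and cells were selected with puromycin before clones were picked. The paper describes the wild-type clone as transfected too, apart from untransfected cells. Each library came from 1 clone, so that genotype, clone, culture and library cannot be told apart. Values are UMIs summed over cells and scaled to counts per 1000000 UMIs of the same cells (CPM), and with 1 library per condition no test was made. All intervals are exact, at 95%, and cover counting error only.

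LIF binds LIFR, which pairs with gp130, the product of *Il6st*. JAK kinases bound to the receptor then phosphorylate STAT3, which enters the nucleus, and SOCS3, made from a gene that STAT3 switches on, shuts the receptor off again. In mouse ES cells this pathway holds the naive state, *Pim1* and *Pim3* are among its known targets, and feeder cells are a classical source of LIF. The ligand was supplied in the medium here, so the level of the *Lif* transcript is not the amount of LIF that the cells met.

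STAT factors bind a palindrome whose letters are TTCNNNGAA, which reads alike on both strands. RefSeq promoter windows of GRCm38.p6, each 300 bases from 250 before to 50 after an annotated start, were matched for 8 of 8 members, with 10 windows in all. Of these, 1 held the palindrome, the window of *Socs3*, against 8.30% of all 32851 windows. The windows of *Socs3*, *Pim1* (the upstream one of its pair) and *Pim3* are shown because these are the 3 pathway targets among the members, with the palindrome in capitals. They lie at chr11:117969317-117969616 (minus strand), chr17:29490535-29490834 (plus strand) and chr15:88861944-88862243 (plus strand), and each is written 5′ to 3′ along its gene.
Socs3: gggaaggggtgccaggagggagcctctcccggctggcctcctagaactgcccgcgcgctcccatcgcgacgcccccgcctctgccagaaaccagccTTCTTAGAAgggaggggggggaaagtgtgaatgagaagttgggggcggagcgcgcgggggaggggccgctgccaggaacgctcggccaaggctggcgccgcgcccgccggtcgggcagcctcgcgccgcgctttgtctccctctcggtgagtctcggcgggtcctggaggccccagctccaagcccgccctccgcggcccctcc
Pim1: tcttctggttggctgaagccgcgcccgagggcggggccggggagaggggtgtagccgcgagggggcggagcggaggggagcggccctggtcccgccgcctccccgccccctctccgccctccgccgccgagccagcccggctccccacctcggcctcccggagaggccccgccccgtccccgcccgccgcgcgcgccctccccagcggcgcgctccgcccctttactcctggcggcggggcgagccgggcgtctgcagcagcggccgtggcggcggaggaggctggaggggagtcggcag
Pim3: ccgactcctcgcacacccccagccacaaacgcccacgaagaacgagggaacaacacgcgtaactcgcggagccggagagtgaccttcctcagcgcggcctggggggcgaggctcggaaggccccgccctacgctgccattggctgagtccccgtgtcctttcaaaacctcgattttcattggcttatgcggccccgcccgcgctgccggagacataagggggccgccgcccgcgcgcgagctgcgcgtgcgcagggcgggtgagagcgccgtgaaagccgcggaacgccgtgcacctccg
The palindrome of *Socs3* (chr11:117969512-117969520) runs from 154 to 146 bases before the RefSeq start. GENCODE M21 has 3 transcripts of the gene, and the palindrome lies 326 to 334 bases before the start of the protein-coding one, 61 to 69 bases before that of a processed transcript, and in an intron of another processed transcript that starts upstream, at the end of the gene's span. The match is a description of the letters in these windows, and the windows without it say nothing of sites elsewhere.

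Limits of 500 UMIs and of 20% mitochondrial UMIs per cell left 1856 cells in one library, the wild-type, and 1622 knockout cells. Of these, 48 wild-type cells (2.59%) and 23 knockout cells (1.42%) had at least 0.3% of their UMIs on *Col1a1*, *Col1a2* and *Col3a1* and were set apart as fibroblasts. For fibroblasts the words wild-type and knockout name the library only, since the paper describes the edit in ES cells and not in the feeders. The remaining 1808 wild-type cells, with 11207628 UMIs and a median of 6112 per cell, and 1599 knockout cells, with 9225733 UMIs and a median of 5072, are called other cells. They carried all 10 ES cell markers, with a sum of 4226 CPM (wild-type) and 4385 CPM (knockout), against 269 and 582 CPM in the fibroblasts, where *Fgf4* was at 0. The 7 feeder markers that the limit did not use summed to 13994 (wild-type) and 10224 CPM (knockout) in the fibroblasts and to 917 and 891 CPM in the other cells, and all 10, the collagen genes included, to 32257 and 27988 CPM against 940 and 919 CPM. *Lin28a* had 111 CPM in wild-type and 36.9 CPM in knockout other cells, a ratio of 0.333 (interval 0.295 to 0.376). UMIs near the end of a transcript do not read the edited exon, so this level is no direct check of the edit. *Pou5f1*, which fibroblasts should lack, had a UMI in 12.5% of wild-type fibroblasts (median depth 8131.5 UMIs) and 21.7% of knockout fibroblasts (median depth 2295 UMIs), against 90.3% and 77.0% of the other cells. Among the fibroblasts of each library much of it lay in 1 cell, with 9 of 20 wild-type and 16 of 20 knockout UMIs, and its source was not tested.

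*Lif*, the ligand (ENSMUSG00000034394.14, chr11:4257557-4272514, plus strand of GRCm38), was read from the feeders and from the other cells in both libraries, in shares that depend on the collagen limit. Wild-type fibroblasts had 110 *Lif* UMIs, or 255 CPM (209 to 307), and knockout fibroblasts had 59 UMIs, or 513 CPM (390.1 to 661). In the other cells it had 4.10 CPM (3.005 to 5.47) from 46 wild-type UMIs and 11.7 CPM (9.60 to 14.1) from 108 knockout UMIs. *Lif* was thus 62.1-fold (43.6 to 89.6) higher in wild-type fibroblasts than in wild-type other cells, and 43.8-fold (31.3 to 60.7) higher in knockout ones. With a limit of 1% collagen these folds were 37.3 (26.9 to 51.8) and 64.3 (45.8 to 89.4), so their order is not fixed. Fibroblasts gave 3.71% of all wild-type UMIs, yet they held 70.5% (62.7 to 77.5) of those on *Lif*, and in the knockout library they gave 1.23% and held 35.3% (28.1 to 43.1). With a limit of 0.1% collagen the knockout share was 53.3%, since it takes in 1 cell with 29 *Lif* UMIs, and with a limit of 1% the wild-type share was 51.3%. Of 48 wild-type fibroblasts 32 had a *Lif* UMI and the highest had 15, and of 23 knockout fibroblasts 12 had one and the highest had 11. Between the fibroblasts of the libraries the *Lif* ratio, knockout over wild-type, was 2.01 (1.44 to 2.78). With a limit of 1% collagen it was 3.07 (2.14 to 4.38), while the fibroblasts from 0.3% to under 1% collagen, 17 wild-type and 7 knockout cells, went the other way, with 30 and 3 *Lif* UMIs and a ratio of 0.265 (0.0518 to 0.853).

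**Figure D1:**
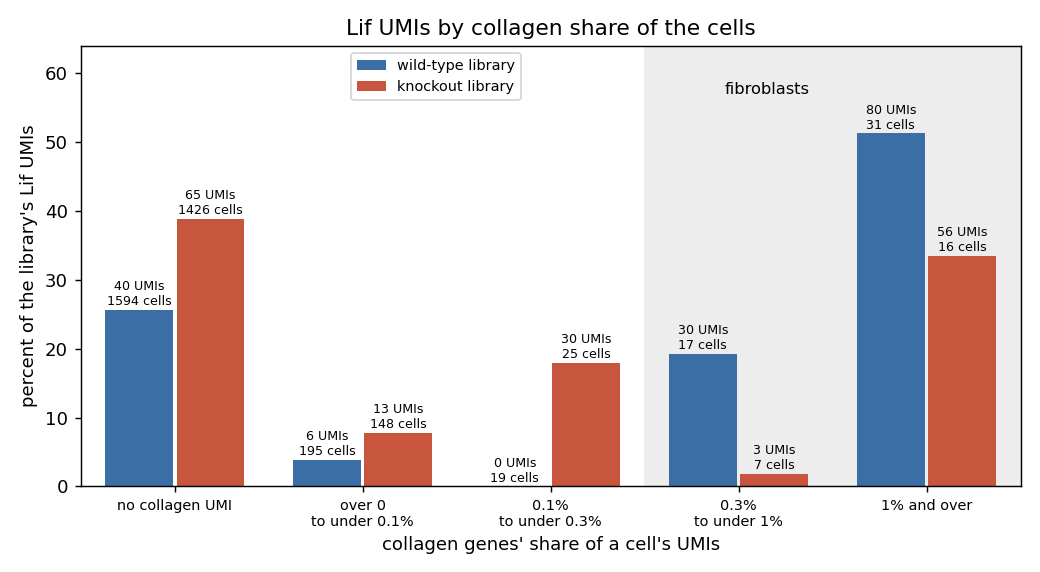
Percent of each library's *Lif* UMIs (vertical axis) in cells grouped by the share of their UMIs on the 3 collagen genes (horizontal axis), with the number of *Lif* UMIs and of cells above each bar. The shaded groups are the fibroblasts. Cells with at least 1% collagen held 80 of 156 wild-type *Lif* UMIs and 56 of 167 knockout ones, and the knockout group from 0.1% to under 0.3% held 30.

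In the other cells the ratio of *Lif*, knockout over wild-type, was 2.85 (2.00 to 4.12), on counts below the 200 UMIs over both libraries that were asked of a gene before it was ranked. The *Lif* UMIs of the wild-type other cells were spread thin, with 44 cells holding 1 UMI and 1 cell holding 2. In the knockout library 62 other cells held 1 UMI, 6 held 2, and a pair of cells held 29 and 5. The cell with 29 had 18430 UMIs in all, 45 of them on the collagen genes (0.244%, just under the limit for fibroblasts), 65 on *Sparc*, 22 on *Ccl2*, 56 on *Junb* and 1 on *Pou5f1*. The cell with 5 had 0 collagen UMIs and 13 *Pou5f1* UMIs among 9010. Without this pair, left out after its values were seen, the knockout other cells had 74 *Lif* UMIs, 8.04 CPM, and the ratio was 1.96 (1.34 to 2.90). It was 1.78 with a limit of 1% collagen and 1.33 with fibroblasts counted with the other cells. In cells with no collagen UMI at all the level of *Lif* was 4.10 CPM (2.93 to 5.59) over 1594 wild-type cells against 8.19 CPM (6.32 to 10.4) over 1426 knockout cells.

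Of the wild-type other cells 2.49% (1.82 to 3.32) had a *Lif* UMI, against 4.38% (3.43 to 5.50) of the knockout ones, or 0.225% and 0.573% with each cell thinned to 500 UMIs. The share thus stood higher in the knockout library although its cells were shallower. Barcodes that were not kept, most of them under 500 UMIs, had 20.4 CPM (9.35 to 38.8; 9 UMIs) and 14.6 CPM (6.98 to 26.8; 10 UMIs) of *Lif*, so that the order of the libraries was not the same there. The part of free RNA in the *Lif* UMIs of the other cells was not tested.

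*Lifr*, the chain that binds LIF (ENSMUSG00000054263.12, chr15:7090614-7197489, plus strand), stood at 36.4 CPM (33.0 to 40.1; 408 UMIs) in wild-type other cells and 28.7 CPM (25.4 to 32.4; 265 UMIs) in knockout other cells, a ratio of 0.789 (0.673 to 0.923). *Il6st*, which codes for the signalling chain gp130 (ENSMUSG00000021756.12, chr13:112464070-112510086, plus strand), stood at 25.7 CPM (22.8 to 28.8; 288 UMIs) and 19.0 CPM (16.3 to 22.0; 175 UMIs), a ratio of 0.738 (0.608 to 0.894). Both receptor genes were therefore lower in the knockout library by more than counting error, and neither passed 1.5-fold. They parted in the fibroblasts. *Il6st* was 8.93-fold (7.03 to 11.3) (wild-type) and 5.04-fold (2.47 to 9.24; knockout) higher in fibroblasts than in other cells, while *Lifr* had 11 and 2 fibroblast UMIs and ratios of 0.7001 (0.347 to 1.27) and 0.605 (0.0729 to 2.21), within counting error of the other cells.

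*Jak1*, the receptor-bound kinase (ENSMUSG00000028530.14, chr4:101152367-101265282, minus strand), stood at 33.2 CPM (29.9 to 36.7; 372 UMIs) in wild-type and 33.8 CPM (30.2 to 37.8; 312 UMIs) in knockout other cells. Over all depths the ratio was 1.02 (0.874 to 1.19), an interval that includes 1, and it ran from 0.514 to 1.26 over bands of UMIs per cell. Its end overlaps *Raver2* on the opposite strand, which had 40 and 39 UMIs in all kept cells. In fibroblasts *Jak1* was 7.33-fold (5.84 to 9.12) (wild-type) and 3.34-fold (1.76 to 5.79; knockout) higher than in other cells. Between the fibroblasts of the libraries *Jak1* and *Il6st* were lower in the knockout library, with ratios of 0.464 (0.239 to 0.829) and 0.417 (0.201 to 0.778). At this collagen limit *Lif* went the opposite way. The knockout values rest on 13 *Jak1* UMIs in 4 of 23 cells and 11 *Il6st* UMIs in 7. Wild-type fibroblasts had 105 in 35 and 99 in 32 of 48 cells. The share of all genes that were lower in this comparison was not counted, nor was the collagen limit varied for these genes. The knockout fibroblasts were few and shallow, with 115122 UMIs against 431628.

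*Stat3*, the transcription factor (ENSMUSG00000004040.16, chr11:100885098-100939540, minus strand), stood at 244 CPM (235 to 253; 2734 UMIs) in wild-type and 268 CPM (258 to 279; 2477 UMIs) in knockout other cells, a ratio of 1.10 (1.04 to 1.16). Other cells with a *Stat3* UMI made up 69.7% (wild-type) and 64.6% (knockout), or 11.4% and 14.8% at 500 UMIs per cell, so the order of the shares follows the depth and turns once depth is matched. In fibroblasts the level was 357 CPM (wild-type) and 269 CPM (knockout), 1.46-fold (1.24 to 1.72) and 1.003-fold (0.680 to 1.43) the level of the other cells. *Stat3* overlaps the end of *Stat5a* on the opposite strand, and the strand setting of the counting was not given. *Stat5a* itself had 92 and 87 UMIs in all kept cells. Whether any of its transcripts were counted on *Stat3* was not tested.

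*Socs3*, the feedback inhibitor and the member whose promoter window holds the palindrome (ENSMUSG00000053113.3, chr11:117966079-117970047, minus strand), stood at 31.3 CPM (28.1 to 34.8; 351 UMIs) in wild-type and 32.1 CPM (28.5 to 35.96; 296 UMIs) in knockout other cells. The ratio of 1.02 (0.875 to 1.199) showed no difference that the depth could resolve. In fibroblasts it had 20 and 4 UMIs, with ratios to the other cells of 1.48 (0.893 to 2.32) and 1.08 (0.293 to 2.80).

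The *Pim* genes code for serine/threonine kinases that favour survival and growth, and here they went opposite ways. *Pim1* (ENSMUSG00000024014.7, chr17:29490753-29496112, plus strand) stood at 224 CPM (216 to 233; 2514 UMIs) in wild-type and 193 CPM (184 to 202; 1776 UMIs) in knockout other cells, a ratio of 0.858 (0.807 to 0.912). The antisense gene *Gm26885* that overlaps it had 6 UMIs in the kept cells of each library. *Pim3* (ENSMUSG00000035828.11, chr15:88862186-88865726, plus strand) stood at 115 CPM (109 to 122; 1294 UMIs) and 158 CPM (150.2 to 167; 1460 UMIs), a ratio of 1.37 (1.27 to 1.48), above that of 87.6% of the genes with at least 200 UMIs. At 500 UMIs per cell, 10.3% (wild-type) and 8.42% (knockout) of the other cells had a *Pim1* UMI, and 5.14% and 7.77% a *Pim3* UMI. In fibroblasts *Pim1* kept the level of the other cells, at 1.03-fold (0.837 to 1.26) and 1.04-fold (0.656 to 1.56), whereas *Pim3* was lower there, at 18.5 CPM (8 UMIs) and 52.1 CPM (6 UMIs) or 0.161-fold (0.0692 to 0.317) and 0.329-fold (0.121 to 0.719). Of the members it was the only one past 2-fold on the lower side in the fibroblasts of both libraries. The knockout value rests on 6 UMIs, and *Pou5f1* stood at 174 CPM in the same fibroblasts, with 16 of its 20 UMIs in 1 cell.

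**Figure D2:**
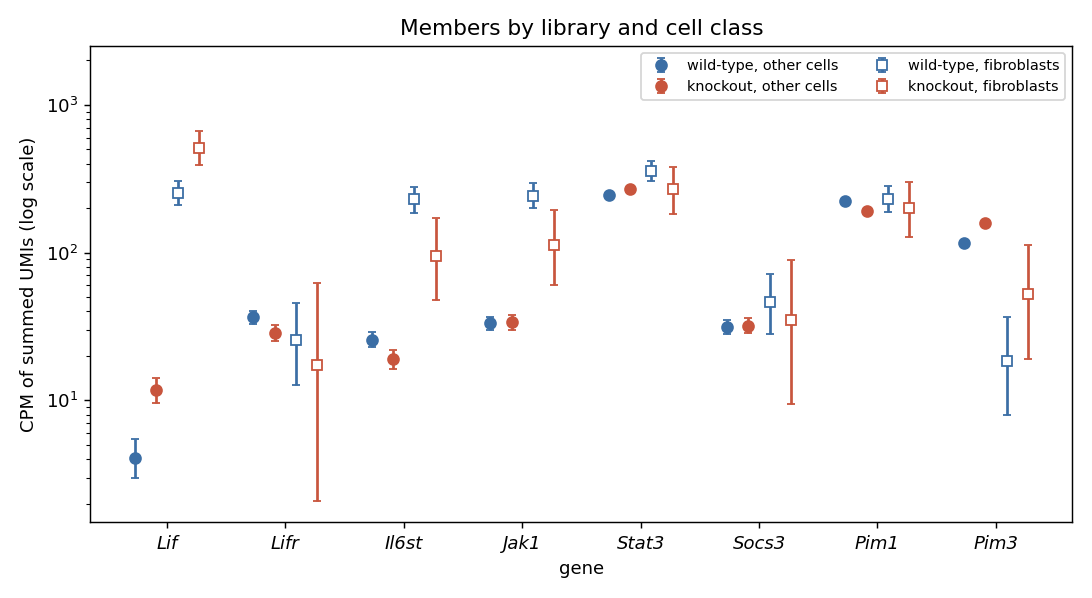
CPM of summed UMIs (vertical axis, log scale) of the 8 members in other cells (filled circles) and fibroblasts (open squares) of the wild-type (blue) and knockout (red) libraries, with exact Poisson intervals. *Lif*, *Il6st* and *Jak1* stand higher in the fibroblasts of both libraries and *Pim3* stands lower. Levels of different genes are not to be compared, since capture differs between transcripts.

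Read together, 0 of the 7 members with at least 200 UMIs passed 1.5-fold between the libraries in the other cells, beside 14.7% of the 9643 genes so measured (6.87% higher in the knockout library and 7.87% lower). Of the 1421 genes past it 46.6% were higher in the knockout library, against 33.5% of 1453 with median of ratios scaling, under which 0 members passed it as well. Their median log2 ratio was 0.03 and that of all these genes 0.03. With a minimum of 50 UMIs *Lif* enters the ranking and passes the fold on the higher side, as 11.4% of 15104 genes do (8.12% pass it on the lower side and 19.5% on either). The counting interval of the ratio left out 1 for 58.7% of the 9643 genes (30.5% higher and 28.2% lower in the knockout library), so an interval that leaves out 1, as for *Lifr*, *Il6st*, *Stat3*, *Pim1* and *Pim3*, is the common case between these libraries. Between fibroblasts and other cells 3 of 8 members passed 2-fold on the higher side and 1 of 8 on the lower side in each library, beside 20% and 25% of 12815 wild-type genes and 21.8% and 22.3% of 12170 knockout genes. A minimum of 50 UMIs over both classes was asked here. Wild-type *Lif*, 1 of the higher ones, met it only through the fibroblasts, with 110 UMIs there and 46 in the other cells.

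**Figure D3:**
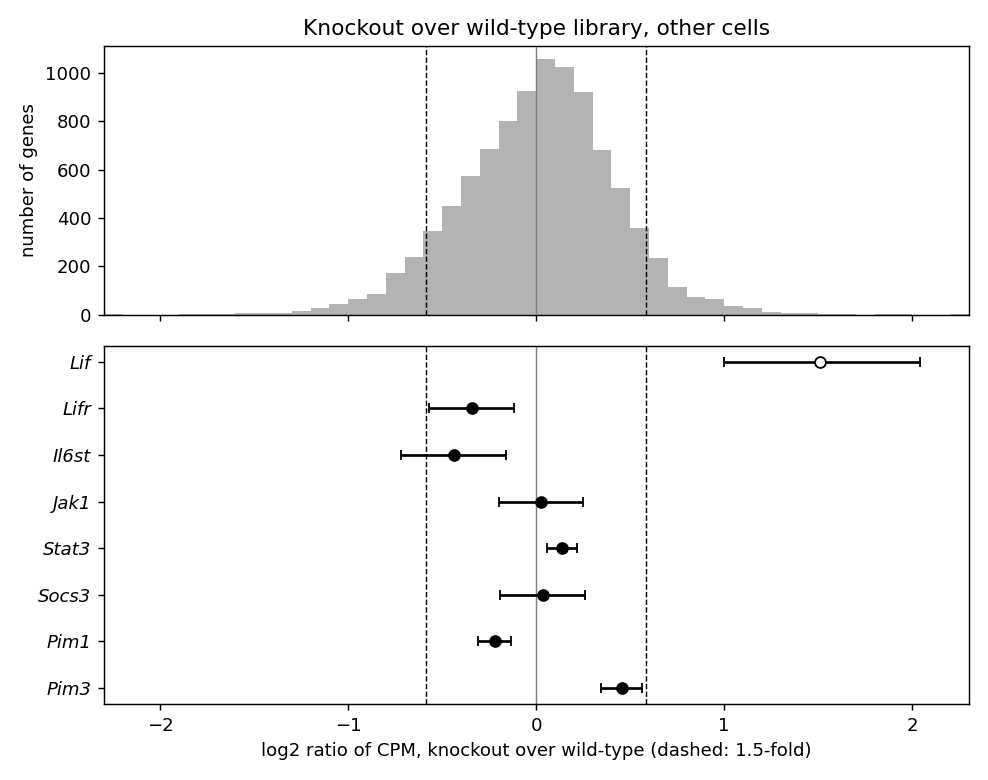
Top, number of genes (vertical axis) by log2 ratio of CPM, knockout over wild-type library, in other cells (horizontal axis), for the 9643 genes with at least 200 UMIs, with ratios beyond the axis counted in the end bars. Bottom, the ratio of each member with its counting interval, open for *Lif*, which had fewer UMIs. The members with filled points lie between the dashed lines at 1.5-fold.

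A wider list of 54 pathway genes, members included, was read in the same way. Of its 39 genes with at least 200 UMIs 4 passed 1.5-fold on the higher side in the knockout library, 0 on the lower side and 35 neither, beside 6.87% and 7.87% of all genes so measured, and the median log2 ratio was 0.04. *Il11*, a cytokine that also signals through gp130, went from 10.7 to 16.3 CPM, a ratio of 1.52 (1.19 to 1.95). The targets among them were *Cebpb*, a transcription factor, at 1.74 (1.43 to 2.12), and *Ier3*, an immediate early gene, at 1.51 (1.15 to 1.99). *Ier3* had 98 wild-type and 122 knockout UMIs, and at its wild-type level in both libraries it would not have met the minimum of 200.

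The calls of *Cebpb* and *Ier3* did not hold without the *Lif*-rich pair of cells. Without this pair *Cebpb* had a ratio of 1.45 (1.18 to 1.78) and *Ier3* one of 1.34 (1.01 to 1.78), both inside 1.5-fold, while *Il11* stood at 1.52. A fibroblast limit of 0.1% collagen, which sets apart the cell with 29 *Lif* UMIs but not that with 5, gave 1.44 and 1.34. Both genes were higher in fibroblasts than in other cells, *Cebpb* 38.9-fold (wild-type) and 13.2-fold (knockout), *Ier3* 50.3-fold and 44.7-fold. *Il11* in turn fell inside 1.5-fold, at 1.35 (1.04 to 1.75), when cells under 5% ribosomal protein UMIs were left out. Among the 14 listed targets, 12 stayed inside 1.5-fold: the naive factors *Klf4* and *Tfcp2l1* had ratios of 0.885 (0.852 to 0.919) and 0.843 (0.797 to 0.890), and *Klf5* one of 1.32 (1.28 to 1.37). All 13 inhibitors and adaptors with enough UMIs were inside it. Between fibroblasts and other cells 15 of 43 listed genes passed 2-fold on the higher and 10 on the lower side in the wild-type library, beside 20% and 25% of all genes. In the knockout library 16 and 10 of 42 did, beside 21.8% and 22.3%. Among the higher wild-type ones *Lif* and *Socs5* met the minimum of 50 UMIs only with their fibroblast UMIs.

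The libraries differ in depth, so the members were also compared within bands of UMIs per cell. *Pim3* was higher in the knockout library in each of the 4 bands, with ratios of 2.28 (1.29 to 4.36) from 500 to 2000 UMIs, 1.45 (1.15 to 1.83) from 2000 to 5000, 1.47 (1.32 to 1.64) from 5000 to 10000 and 1.15 (0.993 to 1.32) above. *Pim1* was lower in each of them, with ratios from 0.746 to 0.874, and its interval included 1 only from 500 to 2000 UMIs (0.516 to 1.09). *Il6st* had ratios from 0.639 to 0.742 in the 3 bands from 2000 UMIs up, and *Lifr* ratios from 0.690 to 0.905, while the shallowest band gave 1.46 (0.466 to 6.05) and 2.34 (0.521 to 21.5) on few counts. For both genes the interval left out 1 only from 5000 to 10000 UMIs, at 0.466 to 0.866 for *Il6st* and 0.546 to 0.867 for *Lifr*. *Socs3* had ratios of 1.04 (0.830 to 1.30) and 0.973 (0.716 to 1.33) in the deepest pair of bands, which hold most of its UMIs, and 1.44 (0.924 to 2.249) from 2000 to 5000 and 3.12 (0.418 to 138) from 500 to 2000.

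*Jak1* was lower in the knockout library from 2000 to 5000 UMIs, with a ratio of 0.514 (0.294 to 0.862) on 63 and 20 UMIs. Its ratio was 0.779 (0.271 to 2.53) below that band, 1.02 (0.812 to 1.27) from 5000 to 10000 and 1.26 (0.939 to 1.70) above. *Lif* had 0 and 8 UMIs in the shallowest band and ratios of 1.62 (0.637 to 4.12), 2.254 (1.35 to 3.78) and 7.05 (2.60 to 26.8) in the others, and 29 of the 54 knockout UMIs behind the last lay in the *Lif*-rich cell.

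*Stat3* did not keep 1 ratio over depth. Its ratio was 1.88 (1.36 to 2.64) from 500 to 2000 UMIs and 1.43 (1.23 to 1.66) from 2000 to 5000, but 0.989 (0.911 to 1.07) from 5000 to 10000 and 1.01 (0.912 to 1.13) above. The wild-type level stayed between 239 and 249 CPM over the 4 bands, and that of the knockout library was 464, 342, 241 and 253 CPM from the shallowest to the deepest. The higher *Stat3* of the knockout library was thus found in cells under 5000 UMIs, of which it had 502 and 285 in these bands against 208 and 404.

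**Figure D4:**
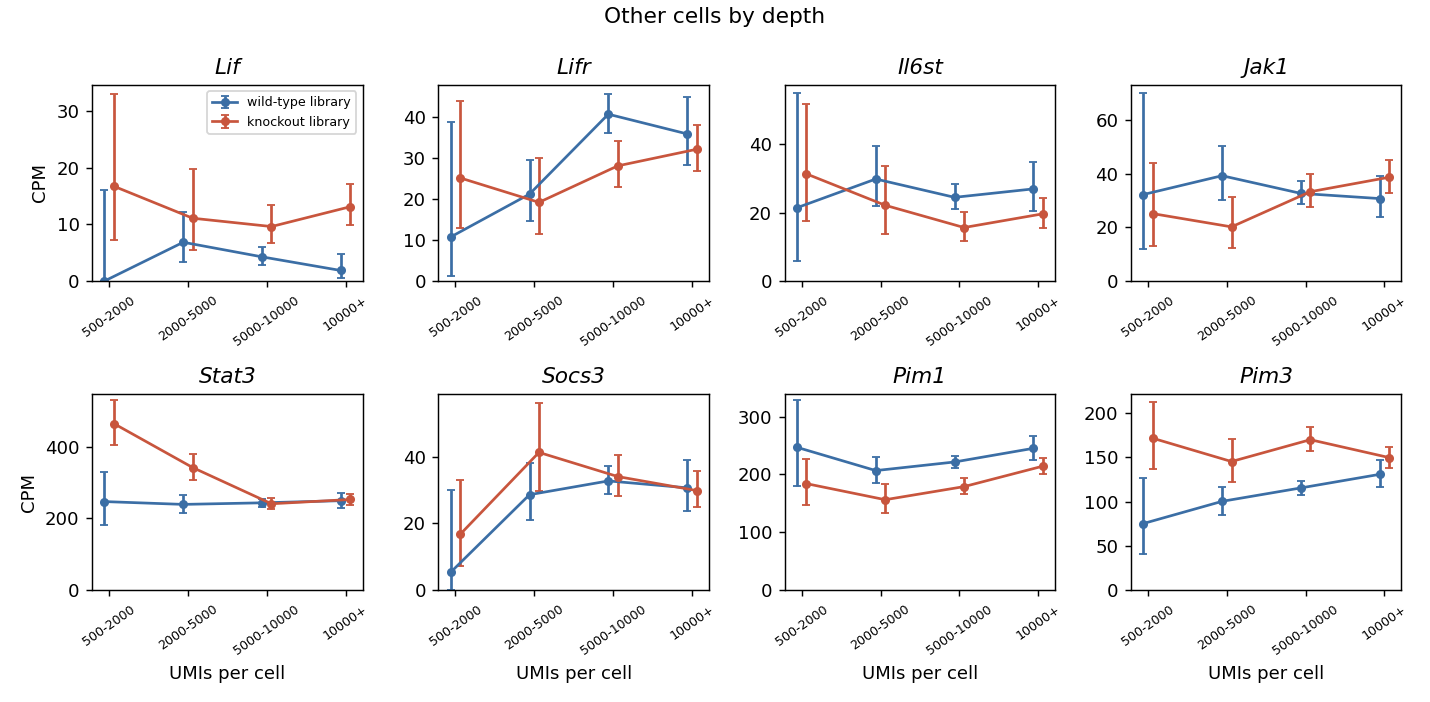
CPM (vertical axes) of each member in the other cells of the wild-type (blue) and knockout (red) libraries by UMIs per cell (horizontal axes), with exact Poisson intervals, drawn to the limit of 3 counts where the count is 0. *Stat3* of the knockout library stands at 464 CPM in the shallowest band and meets the wild-type level from 5000 UMIs up, while *Pim3* stays above and *Pim1* below the wild-type level in every band. The interval of the ratio includes 1 for *Pim1* in the shallowest band and for *Pim3* in the deepest.

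Of the knockout *Stat3* UMIs in the lower pair of bands, 143 of 222 and 90 of 339 lay in cells poor in ribosomal protein (RP) transcripts. Other cells with under 5% of their UMIs on 84 RP genes numbered 83 (wild-type) and 228 (knockout), or 4.59% and 14.3%. In the knockout ones *Stat3* stood at 757 CPM (664 to 860; 239 UMIs in 130 cells with at least 1) against 251 CPM in the remaining cells, 3.02-fold (2.63 to 3.45), and in the wild-type ones at 370 CPM (246 to 535; 28 UMIs) against 243 CPM, 1.52-fold (1.01 to 2.20). At matched depth the knockout fold was 2.496 (1.88 to 3.33) from 500 to 2000 UMIs and 2.92 (2.27 to 3.73) from 2000 to 5000, and the wild-type fold was 2.42 (1.30 to 4.602) in the former band. *Pim1* was also higher in the knockout cells under 5% RP at matched depth, 2.41-fold (1.54 to 3.85) and 1.94-fold (1.26 to 2.91) in these bands, against 1.44-fold (1.14 to 1.79) over all depths. The wild-type *Pim1* fold was 1.70 (0.913 to 3.17) from 500 to 2000 UMIs. Knockout *Pim3* was at 0.605-fold (0.362 to 0.984) from 500 to 2000 UMIs and 0.870-fold (0.463 to 1.51) from 2000 to 5000. Shares of all genes at matched depth were not counted. With cells under 5% RP left out, the *Stat3* ratio between the libraries was 1.03 (0.977 to 1.09) over all depths. By depth it then was 1.76 (1.06 to 3.08) from 500 to 2000 UMIs, on 19 wild-type and 79 knockout UMIs, 1.18 (1.0006 to 1.39) from 2000 to 5000, and 0.984 (0.906 to 1.07) and 1.01 (0.912 to 1.13) above, so that *Stat3* still stood higher in the shallow knockout cells that were not poor in RP transcripts.

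Of the 8 knockout members with at least 50 UMIs, 2 passed 2-fold on the higher side in cells under 5% RP, *Stat3* and *Il6st* (44.4 against 18.1 CPM, on 14 UMIs, with intervals that include 1 in both depth bands), and 0 on the lower side, beside 27.1% and 24.8% of 12045 genes. Of the 7 wild-type members 0 were higher and 2 lower, beside 29.6% and 22.9% of 12396 genes. These were *Pim3*, with 0 of its UMIs there, which made it at least 2.93-fold lower (limit of 3 counts over the group, 39.6 CPM), and *Socs3*, whose 0 UMIs are within the same limit. Cells under 5% RP were shallow, with medians of 789 and 1197 UMIs against 6247 and 6195, and had a median mitochondrial share of 4.32% and 5.83% against 1.30% and 1.37%. *Malat1*, a transcript kept in the nucleus, stood at 18236 and 7377 CPM in them against 3721 and 1510 CPM, and *Actb*, a cytoplasmic mRNA, at 1771 and 2228 CPM against 5189 and 4252 CPM. The part of RNA quality in the *Stat3* level was not tested.

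**Figure D5:**
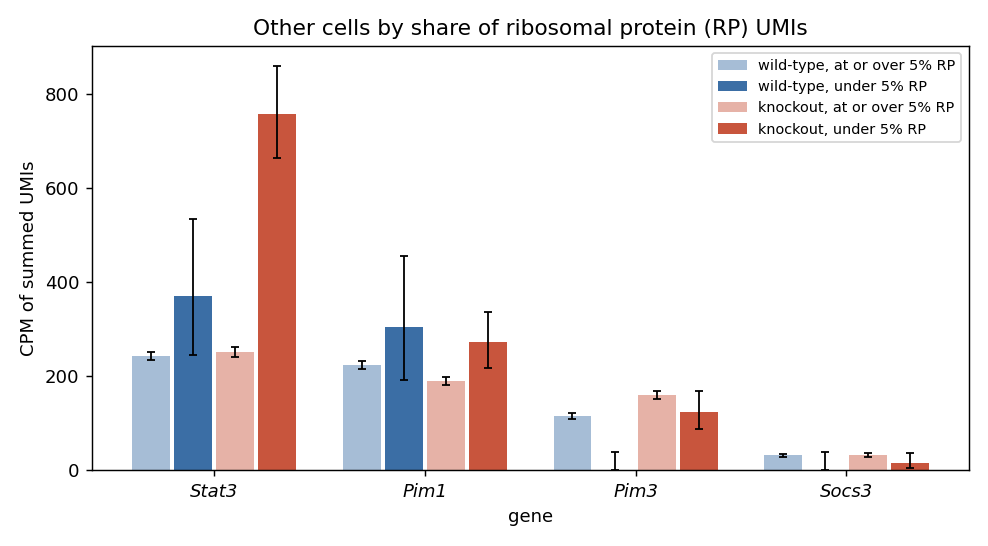
CPM of summed UMIs (vertical axis) of *Stat3*, *Pim1*, *Pim3* and *Socs3* (horizontal axis) in other cells at or over 5% RP (pale) and under 5% RP (full colour) of the wild-type (blue) and knockout (red) libraries, with exact Poisson intervals, drawn to the limit of 3 counts where the count is 0. *Stat3* reaches 757 CPM in the 228 knockout cells under 5% RP, and *Pim3* and *Socs3* have 0 UMIs in the 83 wild-type ones.

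Cells with a *Socs3* UMI were set beside those without, within the 3 bands from 2000 UMIs up, to see whether *Stat3* and other members went along in the same cells. In the largest band, from 5000 to 10000 UMIs, 200 wild-type cells with *Socs3* (median 7433 UMIs) were compared with 823 without (median 6811), and 94 knockout cells with 407 (medians 7718.5 and 7065). *Stat3* had ratios, with over without, of 0.963 (0.679 to 1.33), 1.01 (0.898 to 1.13) and 1.31 (1.09 to 1.56) from the shallowest to the deepest band of the wild-type library, and of 1.07 (0.761 to 1.47), 1.09 (0.926 to 1.29) and 1.04 (0.907 to 1.18) in the knockout library. The interval thus lay above 1 in 1 of 6 comparisons. Of all genes with at least 50 UMIs, it did so for 2.62%, 4.38% and 4.89% in the wild-type bands and for 2.67%, 3.43% and 3.76% in the knockout bands, in the same order. These genes include ones with far fewer UMIs than *Stat3* and *Pim3*, and fewer UMIs give wider intervals. The shares are therefore not a like-for-like background for these members.

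*Pim3* had ratios of 1.21 (0.726 to 1.92), 1.26 (1.07 to 1.48) and 1.04 (0.801 to 1.35) in the wild-type bands and of 1.66 (1.05 to 2.53), 0.925 (0.748 to 1.14) and 1.29 (1.09 to 1.53) in the knockout ones. The interval lay above 1 in 3 of 6 comparisons, in both libraries but in no band of both. *Jak1* ran from 0.857 to 1.52 in the wild-type bands, each interval including 1, and from 0.790 to 1.598 in the knockout ones, where the interval of the highest (1.04 to 2.40) left out 1. For *Lifr*, *Il6st* and *Pim1* it included 1 in each of the 5, 6 and 6 comparisons that gave a ratio. The remaining *Lifr* comparison, wild-type cells from 2000 to 5000 UMIs, had 0 *Lifr* UMIs in 43 cells with *Socs3*. There were 34 (23.8 CPM) in 361 cells without. *Lif* gave a ratio in 5, and its interval lay below 1 in knockout cells above 10000 UMIs, at 0.176 (0.0462 to 0.480) on 4 and 50 UMIs, 29 of them in the *Lif*-rich cell. Without that cell the ratio was 0.417 (0.104 to 1.23). Whether these ratios differ between bands or libraries was not tested.

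Over 10 classes, the fibroblasts and the 4 depth bands of each library, the 3 genes most like each member in log2 CPM (1 count added) were sought among 9831 genes with at least 200 UMIs. The correlations are descriptions over classes that share libraries and depth. *Lif*, at 323 UMIs over all kept cells, met the minimum of 200 only with its fibroblast UMIs. *Lif* was most like *Cdkn2a*, *Cdc42ep3* and *Myo9b* (Pearson's r from 0.982 to 0.988), *Il6st* most like *Ttc28*, *Rbms1* and *Pcgf3* (0.988 to 0.991), and *Jak1* most like *Basp1*, *Marcks* and *Kdelr1* (0.991 to 0.995). *Pim3* was most like *Ddc*, *Gm5837* and *AI467606* (0.985 to 0.991), *Socs3* most like *1110012L19Rik*, *Arl3* and *Rnasek* (0.957 to 0.967), and *Pim1* most like *Ola1*, *Eaf1* and *Brwd3* (0.914 to 0.936). *Stat3* was most like *Gm37214*, *Siglec1* and *Gm30373* (0.920 to 0.931), and *Lifr*, with the lowest r of the members, most like *Mid1ip1*, *Ntn1* and *Bpnt1* (0.842 to 0.860).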

How the data were processed

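Digital expression matrices of 1 wild-type and 1 *Lin28a* knockout inDrop library were analysed. Following an inDrop protocol from the literature, the authors built matrices of UMI counts (genes by barcodes, not normalized), and the deposited counts still include shallow barcodes, with totals of 12079546 UMIs over 4329 barcodes and 10027710 UMIs over 6060 barcodes. The submitters' processing notes name mm10 and Seurat 2.3.4, and the aligner, annotation and strand setting are not given in the sources used here. UMIs counted as ambiguous between genes were not used, 3 and 1 of them on members. Identifiers without their version were named through GENCODE M21 of GRCm38, which named 54079 of 54146.

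The limits for cells, 500 UMIs and 20% mitochondrial UMIs, were those of the study. Doublets were kept, and leaving out those called by Scrublet (27 and 18 cells) was an alternative. Barcodes shared between the libraries could not be counted because the columns carry running numbers. Levels were CPM with exact Poisson intervals, shares had exact binomial (Clopper-Pearson) intervals and ratios exact conditional binomial ones, and calls between libraries asked 1.5-fold and 200 UMIs with 0.5 added to each count. Shares at 500 UMIs per cell came from the hypergeometric distribution. The genes named are the members, *Lin28a*, the listed pathway genes past 1.5-fold (1 of them is not reported here) and the 3 genes most like each member. Other genes (*Klf4*, *Klf5*, *Tfcp2l1*, those of the *Lif*-rich cells and of the cells under 5% RP) were chosen after their values were seen. So were the listed genes named for low counts between fibroblasts and other cells. The members and lists were chosen with earlier results of these data known. The calculation was tested on simulated data. The versions used were scanpy 1.11.5, scipy 1.17.1, numpy 2.4.6, matplotlib 3.10.9 and Python 3.11.15.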

Additional observations from a re-analysis of the deposited data

Results flagged for a closer look

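Barcodes that were not kept, 2473 in the wild-type library with a median of 147 UMIs and 4438 in the knockout library with a median of 129, lay outside the comparisons and still held UMIs of the members. They had 340 (wild-type) and 491 (knockout) such UMIs, or 772 and 715 CPM over the 8 genes, beside 714 and 745 CPM in the other cells. *Lif* alone had 20.4 CPM (wild-type) and 14.6 CPM (knockout) in them, against 4.10 and 11.7 CPM in the other cells. The limit that a count of 0 allows is 3 counts.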

How the results depend on the processing

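No paired analysis was possible because each condition had 1 library. Over 13 alternatives the ratio of *Lif* stayed above 1 (1.33 to 2.88), as did those of *Pim3* (1.31 to 1.40) and *Stat3* (1.03 to 1.11), and those of *Lifr* (0.755 to 0.796), *Il6st* (0.599 to 0.751) and *Pim1* (0.821 to 0.877) stayed below it, while *Jak1* (0.849 to 1.04) and *Socs3* (0.980 to 1.04) lay on both sides. The ratio left its counting interval 3 times for *Lif*, to 1.78 with a fibroblast limit of 1% collagen, to 1.33 with fibroblasts counted with the other cells and to 1.96 without the *Lif*-rich pair, an alternative chosen after seeing the data. It did so once each for *Stat3* (1.03 without cells under 5% RP), *Il6st* (0.599) and *Jak1* (0.849), the last pair with fibroblasts counted with the other cells. Fibroblasts held 53.3% of the knockout *Lif* UMIs with a limit of 0.1% collagen and 44.4% without the *Lif*-rich pair, and 51.3% of the wild-type ones with a limit of 1%. Between the libraries 1 member passed 1.5-fold with fibroblasts counted with the other cells (*Il6st*) and 1 with a minimum of 50 UMIs (*Lif*), where 2946 genes did against 1421. Of these 1421 genes 46.6% were higher in the knockout library, against 33.5% with median of ratios scaling and 58.4% of those at 50 UMIs. Depth limits *Lif* in single cells and every value of the 23 knockout fibroblasts.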
